A study of Homo sapiens with 8 samples.

Results

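The genes of the ERBB receptor system that were examined are 3 receptors (EGFR, ERBB2 and ERBB3), 5 ligands of the EGF family (AREG, EREG, TGFA, HBEGF and NRG1) and ERRFI1, an inducible inhibitor of the receptors. These 9 of the 58870 gene rows were taken by their symbol, from a list drawn up with earlier results of these data known. They were read in 8 RNA-sequencing libraries of Panc 10.05, a long-established cell line from a human pancreatic ductal adenocarcinoma. In 4 libraries the cells were controls and in 4 they overexpressed ELAPOR1, a transmembrane protein of endosomes and lysosomes, from a transgene, named ELAPOR1 libraries below. The labels state neither the vector, its promoter, what the controls carried, whether the cells were 1 clone, nor whether replicates were separate cultures, so p-values measure the spread between these libraries, which may be technical. The series addresses whether ELAPOR1 moves such cells towards the classical/progenitor subtype and alters their metabolism.

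ERBB receptors are tyrosine kinases of the cell surface that pair up when a ligand binds. EGF-family ligands are made as membrane-anchored precursors and are released by ADAM proteases. EGFR binds TGFA, AREG, HBEGF and EREG. ERBB3 binds neuregulins such as NRG1, has little kinase activity of its own and signals as the partner of EGFR or of ERBB2, which has no known ligand. The active pairs feed the RAS-ERK and PI3K-AKT pathways and are then taken up into endosomes, where they are recycled or sorted to lysosomes.

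The libraries held 16558600 to 18128757 counts in controls and 13765509 to 17258166 in ELAPOR1 cells (exact permutation p = 0.143, two-sided, n = 4 each). ELAPOR1 itself stood at 0.150 ± 0.107 CPM (SD, n = 4; counts per 1000000 after TMM scaling) in controls and at 427 ± 2.28 CPM (SD, n = 4) in ELAPOR1 libraries, so every library matched its label. All 6 ductal epithelial markers were expressed, and they summed to 11930 to 13200 CPM in control and 11160 to 11510 CPM in ELAPOR1 libraries, without overlap; 3 of them rose (KRT7, KRT19 and CDH1) and 2 fell (KRT8 and KRT18). The 6 fibroblast markers summed to 2.95 to 4.32 CPM in control and 2.71 to 3.19 CPM in ELAPOR1 libraries, with COL1A2, DCN and LUM at 0 counts everywhere. The 3 endothelial markers summed to 1.61 to 1.95 and 0.576 to 0.865 CPM, with CDH5 at 0; VWF, the endothelial marker tested, was lower in ELAPOR1 libraries. Of the 4 leukocyte markers CD3E was at 0, and the summed 81.8 to 87.9 and 72.6 to 78.8 CPM came almost wholly from CD68, a lysosomal protein. The share of counts from mitochondrial genes was 4.29 to 4.41% in control and 4.70 to 4.93% in ELAPOR1 libraries; the part of these shifts in the results was not tested.

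In ELAPOR1 cells 3 ligand genes and the inhibitor rose and 1 receptor fell. TGFA rose by 26.8%, ERRFI1 by 23.6%, AREG by 13.7% and HBEGF by 12.8%, while ERBB3 changed by -20.3%. EGFR and ERBB2 did not pass the test, and EREG and NRG1 were too low to be tested. Thus 5 of the 7 tested genes were called (edgeR adjusted p under 0.05), 4 higher and 1 lower. Over all 13860 tested genes 44.7% were called, 22.6% higher and 22.1% lower. All 7 genes lay above 50 CPM, and of the 4626 genes with a mean at or above that level 61.7% were called, 33.9% higher and 27.9% lower, so the count of called receptors and ligands is near what well-measured genes gave in general. Control and ELAPOR1 libraries were fully separated in CPM for 5 of the 7, against 39.2% of all tested genes and 55.5% of those at or above 50 CPM. Beside all genes the changes were also ordinary in size. The median absolute log2 fold change was 0.28 among all called genes, and 76.1% of tested genes changed by less than TGFA. Size was not compared with that of genes at or above 50 CPM alone. These are bulk libraries, in which fewer cells expressing a gene and less RNA per cell cannot be told apart.

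**Figure D1:**
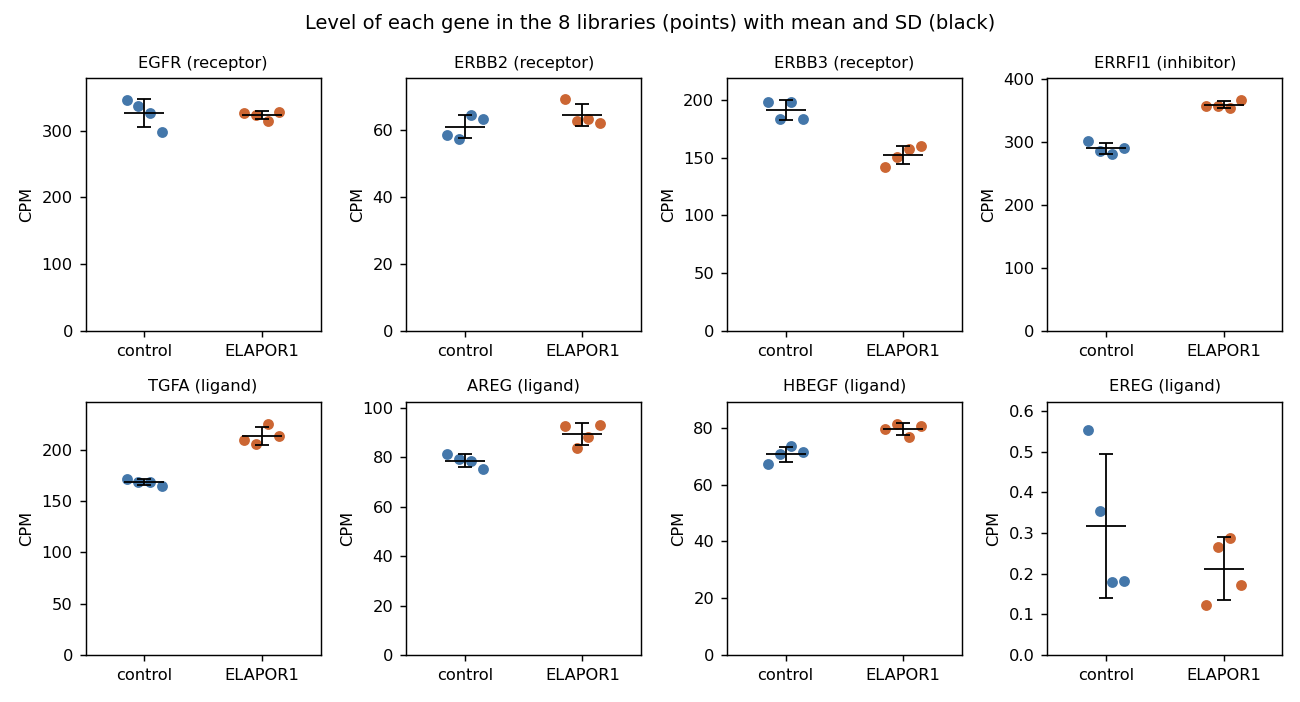
CPM (y axis, from 0) of 8 genes in each of the 4 control and 4 ELAPOR1 libraries (points), with the mean and SD in black; NRG1, with 0 to 2 counts a library, is not drawn. TGFA, AREG, HBEGF and ERRFI1 lie higher and ERBB3 lower in every ELAPOR1 library than in any control, while EGFR, ERBB2 and EREG overlap.

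TGFA (chromosome 2, 70447280 to 70554193, minus strand, GENCODE 29 on GRCh38) encodes transforming growth factor alpha, a ligand of EGFR made by many carcinomas. Control replicates 1 to 4 stood at 172.0, 168.9, 168.5 and 164.9 CPM, and ELAPOR1 replicates 1 to 4 at 210.0, 205.7, 225.4 and 214.1 CPM. The groups were separated by more than 30 CPM with no overlap, and the controls in particular lay close together. TGFA thus differed by 0.34 on the log2 scale (SE 0.033, 95% interval 0.28 to 0.41, edgeR adjusted p = 1.99e-10), more than AREG or HBEGF.

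AREG encodes amphiregulin, a lower-affinity EGFR ligand. It was read at 81.4, 79.4, 78.6 and 75.4 CPM in control replicates 1 to 4 and at 92.6, 83.7, 88.4 and 93.2 CPM in ELAPOR1 replicates 1 to 4. ELAPOR1 replicate 2 came within 3 CPM of the highest control, but the groups did not overlap. AREG differed by 0.19 on the log2 scale (SE 0.043, 95% interval 0.10 to 0.27, edgeR adjusted p = 5.51e-04).

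HBEGF (chromosome 5, 140332843 to 140346631, minus strand) encodes heparin-binding EGF, which binds EGFR and ERBB4. Its level was 67.2, 70.7, 73.7 and 71.6 CPM in control replicates 1 to 4 and 79.8, 81.6, 76.9 and 80.8 CPM in ELAPOR1 replicates 1 to 4. Again every ELAPOR1 library lay above every control, by a small margin. HBEGF differed by 0.17 on the log2 scale (SE 0.043, 95% interval 0.09 to 0.26, edgeR adjusted p = 1.10e-03).

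EREG, the gene of epiregulin, lies close to AREG on chromosome 4 (EREG at 74365143 to 74388751 and AREG at 74445134 to 74455009, both on the plus strand). It was almost silent, with 10, 6, 3 and 3 counts in control and 2, 4, 4 and 3 in ELAPOR1 libraries, and it did not pass the filter on low counts. Without that filter it gave a log2 fold change of -0.60 with an SE of 0.71 (edgeR adjusted p = 0.572), so no difference was detectable at this depth. NRG1, the neuregulin that binds ERBB3, had 1, 0, 0 and 2 counts in control and 2, 0, 0 and 2 in ELAPOR1 libraries. Where a library had 0 counts, levels of up to 0.177 to 0.216 CPM (3 counts, for counting error only) remain possible, and no fold change is given.

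To show what lies in front of these genes, the 250 bases before the start of transcription are given for AREG and EREG, neighbours with very different levels, and for HBEGF and ERRFI1, which rose together with AREG. The sequences are from RefSeq on GRCh38.p14, 5′ to 3′ on the gene's own strand, with capitals at matches to the TATA box (TATAAA), the AP-1 site (TGANTCA), the CRE (TGACGTCA), the GC box (GGGCGG) or the E-box (CACGTG), each sought on both strands.
AREG, chr4:74444886-74445135, plus strand: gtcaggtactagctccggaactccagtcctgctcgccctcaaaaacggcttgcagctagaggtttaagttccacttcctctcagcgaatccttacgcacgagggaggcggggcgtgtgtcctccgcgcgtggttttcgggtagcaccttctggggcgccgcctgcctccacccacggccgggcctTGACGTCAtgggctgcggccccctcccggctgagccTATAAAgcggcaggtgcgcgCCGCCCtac
EREG, chr4:74364895-74365144, plus strand: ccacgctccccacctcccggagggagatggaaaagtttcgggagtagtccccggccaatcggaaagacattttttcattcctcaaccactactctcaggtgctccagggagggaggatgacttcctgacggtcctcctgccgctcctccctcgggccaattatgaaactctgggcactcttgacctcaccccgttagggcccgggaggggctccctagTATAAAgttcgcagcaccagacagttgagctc
HBEGF, chr5:140346604-140346853, minus strand: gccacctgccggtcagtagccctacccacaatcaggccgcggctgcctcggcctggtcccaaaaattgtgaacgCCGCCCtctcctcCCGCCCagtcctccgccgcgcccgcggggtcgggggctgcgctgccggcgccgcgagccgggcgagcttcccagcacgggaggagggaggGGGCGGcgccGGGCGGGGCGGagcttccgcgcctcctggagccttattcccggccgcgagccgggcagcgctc
ERRFI1, chr1:8026310-8026559, minus strand: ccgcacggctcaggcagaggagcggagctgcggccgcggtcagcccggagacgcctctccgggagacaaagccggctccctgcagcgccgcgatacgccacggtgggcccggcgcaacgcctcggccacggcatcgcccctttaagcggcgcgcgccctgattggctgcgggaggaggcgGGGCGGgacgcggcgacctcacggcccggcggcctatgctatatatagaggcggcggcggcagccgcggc
AREG and EREG each hold 1 TATA box, 29 to 24 and 32 to 27 bases before the start, and 10.7% of 35116 promoter windows of this length hold one. AREG also holds 1 CRE, 65 to 58 bases before the start, a motif of 1.65% of windows, and 1 GC box. HBEGF holds 5 GC boxes, of which the pair nearest the start share a base, and ERRFI1 holds 1; 42.6% of windows hold at least 1. No E-box (6.34% of windows) or AP-1 site (6.57%) was found in these 4 windows. TGFA has 2 RefSeq starts; the window of the outer one holds 3 GC boxes and the other none of the motifs. The GC content was 65.2% for AREG, 58.0% for EREG, 76.4% for HBEGF and 75.2% for ERRFI1, beside a median of 58.0% over all windows. Only the exact letters were sought, so variants of the TATA box, such as the run tatatata near the end of the ERRFI1 window, were not counted. A match is a description of the letters and does not show that a factor binds.

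Of the receptors, ERBB3 fell and the others did not pass the test. ERBB3 stood at 198.2, 183.7, 198.3 and 183.3 CPM in control replicates 1 to 4 and at 141.8, 150.2, 157.1 and 159.8 CPM in ELAPOR1 replicates 1 to 4. The highest ELAPOR1 library was more than 20 CPM under the lowest control. This gave a log2 fold change of -0.33 (SE 0.038, 95% interval -0.40 to -0.25, edgeR adjusted p = 1.24e-08). In GENCODE 29 the exons of ERBB3 (chromosome 12, 56076799 to 56103505) share 31 bases with AC034102.2 on the same strand, which had 4 to 48 counts a library, so reads of that transcript could contribute little.

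EGFR (chromosome 7, 55019021 to 55211628) had the most counts of the receptors. Its control replicates 1 to 4 stood at 345.5, 337.3, 325.9 and 297.8 CPM and its ELAPOR1 replicates 1 to 4 at 325.6, 323.6, 314.9 and 328.3 CPM. The ELAPOR1 libraries lay within the range of the controls, which were more widely spread (SD 20.8 against 5.77 CPM). Its log2 fold change was -0.02 (SE 0.035, 95% interval -0.08 to 0.05, edgeR adjusted p = 0.75), and its sign changed with total count scaling and without control replicate 1. After GC and length trends were taken out of every library, a setting added after seeing the data, it was -0.08 and passed the test (edgeR adjusted p = 0.0101).

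ERBB2, the receptor without a known ligand, was at 58.7, 57.5, 64.5 and 63.5 CPM in control replicates 1 to 4. ELAPOR1 replicates 1 to 4 were at 69.4, 62.9, 63.4 and 62.4 CPM, so that the groups overlapped and ELAPOR1 replicate 1 stood above the rest. Its log2 fold change was 0.08 (SE 0.049, 95% interval -0.01 to 0.18, edgeR adjusted p = 0.183). The exons of ERBB2 (chromosome 17, 39687914 to 39730426) share 765 bases with PGAP3 and MIEN1 on the other strand, and no source used here says that strand was used in counting, so a part of these counts is uncertain.

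ERRFI1 encodes MIG6, which binds the kinase domain of active ERBB receptors, blocks it and directs EGFR to degradation. Its transcription is itself induced by receptor signalling, which makes it a feedback inhibitor. Control replicates 1 to 4 stood at 302.8, 287.0, 282.2 and 291.5 CPM and ELAPOR1 replicates 1 to 4 at 357.7, 358.3, 354.6 and 367.5 CPM. The lowest ELAPOR1 library was about 50 CPM above the highest control, and both groups were tight. ERRFI1 differed by 0.31 on the log2 scale (SE 0.030, 95% interval 0.25 to 0.36, edgeR adjusted p = 2.15e-10). Its exons (chromosome 1, 8004404 to 8026308) share 155 bases with AL034417.4 on the other strand, which had at most 7 counts in a library.

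**Figure D2:**
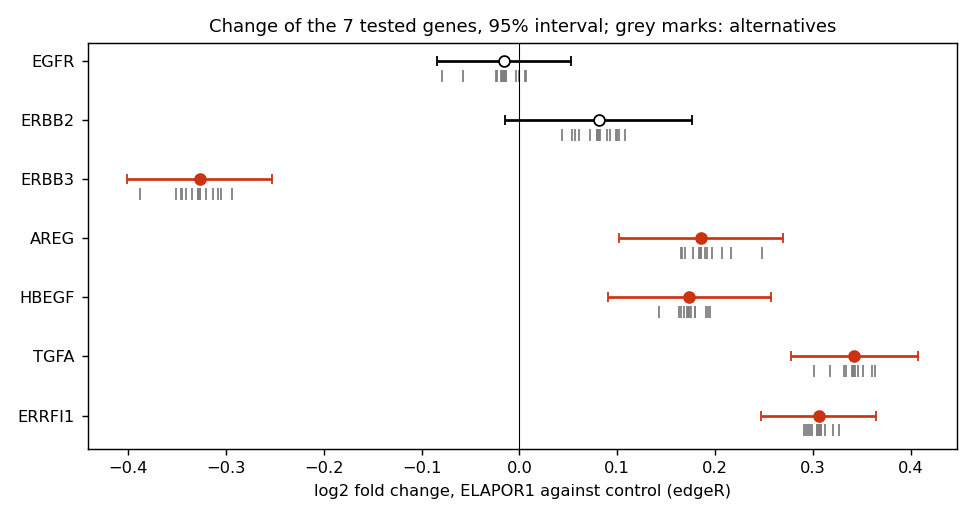
Log2 fold change of ELAPOR1 against control (x axis) for the 7 tested genes, with 95% intervals; filled points passed the edgeR test, and grey marks show the values under 19 alternatives. TGFA, ERRFI1, AREG and HBEGF lie to the right of 0 and ERBB3 to the left under each alternative drawn, while EGFR has values on both sides of 0.

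None of the 7 genes changed by significantly more than 1.5-fold (edgeR glmTreat, 0 called and 0 at an unadjusted p under 0.05), a test that 1.55% of all tested genes passed; edgeR, DESeq2 and limma-voom against no change called 5 each. The 5 calls held under each of the other alternatives, which included every left-out library.

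Because the changes are small, pairs of these genes were also compared within each library, where scaling between libraries cancels. The 7 ratios were chosen after the values were seen and use the same counts as the fold changes, so they are not separate evidence. The log2 ratio of ERBB3 to EGFR counts was -0.77 ± 0.082 (SD, n = 4) in controls and -1.09 ± 0.086 (SD, n = 4) in ELAPOR1 libraries (two-sided exact permutation p = 0.0286, Benjamini-Hochberg value over the 7 ratios 0.05). That of ERBB3 to ERBB2 went from 1.65 ± 0.095 to 1.24 ± 0.14 (exact permutation p = 0.0286, adjusted 0.05). The groups did not overlap in either, so ERBB3 was lower relative to both of its partners in every ELAPOR1 library.
Among the ligands, the log2 ratio of TGFA to AREG went from 1.10 ± 0.021 to 1.26 ± 0.080 without overlap (exact permutation p = 0.0286, adjusted 0.05). TGFA to HBEGF went from 1.252 ± 0.074 to 1.42 ± 0.092 with overlap (exact permutation p = 0.0571, adjusted 0.08). AREG to HBEGF was 0.15 ± 0.091 and 0.16 ± 0.085 (exact permutation p = 0.886, adjusted 0.886), a difference of 0.01. The log2 ratio of ERRFI1 to EGFR went from -0.17 ± 0.092 to 0.15 ± 0.016 without overlap (exact permutation p = 0.0286, adjusted 0.05), and that of ERBB2 to EGFR was -2.42 ± 0.16 and -2.32 ± 0.072 (exact permutation p = 0.343, adjusted 0.40). A p-value of 0.0286 is the smallest that 4 against 4 libraries can give, and no adjusted value fell under 0.05.

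Levels of different genes were compared per length, as CPM per kb of merged exons. In control libraries ERRFI1 was highest at 69.5 ± 2.11 CPM per kb, followed by AREG at 47.8 ± 1.51 and TGFA at 34.0 ± 0.592 (SD, n = 4 each). These 3 ranges did not overlap. EGFR at 26.1 ± 1.66 and HBEGF at 23.4 ± 0.893 came next with overlapping ranges, then ERBB3 at 21.1 ± 0.944 and ERBB2 at 5.91 ± 0.333. ERBB3 lay just under HBEGF without overlap, an order that depends on the length used: per kb of the longest transcript ERBB3, at 30.96 to 33.49, lay above HBEGF, at 28.16 to 30.87, and the control means were 32.2 for ERBB3 and 12.4 for ERBB2. EREG at 0.0556 ± 0.031 and NRG1 at 0.00391 ± 0.00512 were far below, though EREG is the chromosomal neighbour of AREG.

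In ELAPOR1 libraries ERRFI1 was at 85.9 ± 1.33, AREG at 54.3 ± 2.67, TGFA at 43.1 ± 1.71, HBEGF at 26.4 ± 0.678, EGFR at 25.8 ± 0.461, ERBB3 at 16.8 ± 0.889 and ERBB2 at 6.25 ± 0.316 CPM per kb (SD, n = 4 each). HBEGF and EGFR had changed places, but their ranges overlapped in both groups. Of the summed level per kb of the 7 EGFR ligand genes (AREG, EREG, TGFA, HBEGF, BTC, EGF and EPGN), AREG held 42.6 ± 0.648% in control and 41.6 ± 1.27% in ELAPOR1 libraries. TGFA held 30.3 ± 0.179% and 33.0 ± 1.06%, and HBEGF 20.9 ± 1.0% and 20.2 ± 0.832%. BTC held 5.73 ± 0.282% and 4.77 ± 0.384%, so AREG, TGFA and HBEGF made up most of the EGFR ligand RNA measured in the line.

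**Figure D3:**
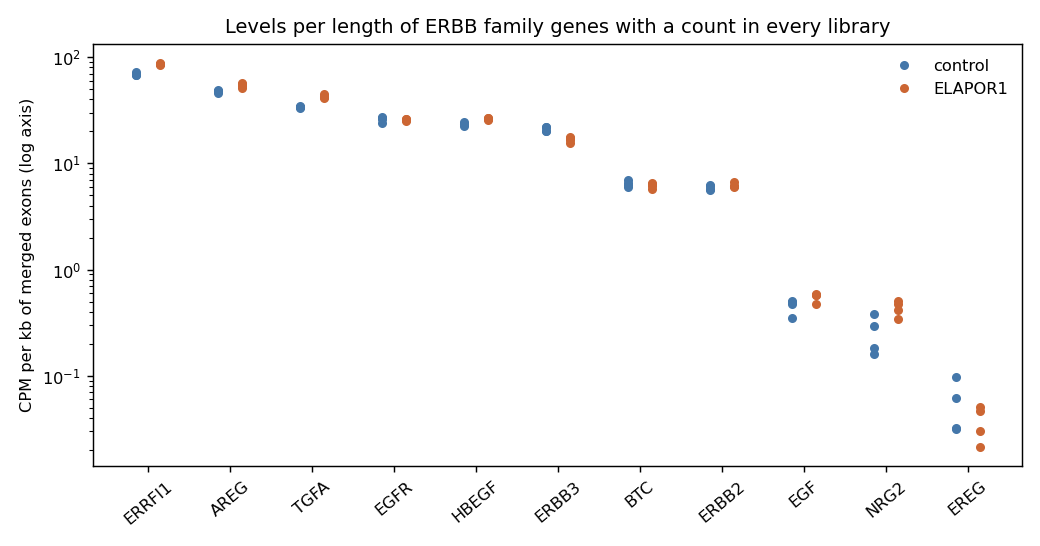
CPM per kb of merged exons (log axis) in each library for the 11 ERBB family genes with a count in every library, control and ELAPOR1 side by side. ERRFI1, AREG and TGFA are the highest, and EREG lies near 0.05 CPM per kb, below EGF and NRG2.

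Apart from BTC, the rest of the family was sparse. Of ERBB4, EGF, BTC, EPGN, NRG2, NRG3 and NRG4, only EGF, BTC and NRG2 were tested. NRG2, a neuregulin, was at 1.33, 0.826, 1.74 and 0.732 CPM in control replicates 1 to 4 and at 2.27, 1.86, 2.16 and 1.56 CPM in ELAPOR1 replicates 1 to 4. The groups overlapped, since control replicate 3 exceeded ELAPOR1 replicate 4. Its log2 fold change of 0.75 (SE 0.29) passed the test with an edgeR adjusted p of 0.0318. The call was lost without ELAPOR1 replicate 1, 2 or 3 or control replicate 2 or 4 (log2 fold changes 0.59 to 0.78, adjusted p up to 0.116). BTC, the gene of betacellulin, was at 18.1 CPM in control and 17.5 CPM in ELAPOR1 libraries and EGF at 2.80 and 3.39 CPM, and neither passed. ERBB4 had at most 5 counts in a library, EPGN at most 1, and NRG3 and NRG4 were at 0.

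Genes that act on the ligands and receptors were taken from lists of pathway members, whose shares of called genes are to be read beside the 44.7% of all tested genes and the 61.7% of those at or above 50 CPM. Among 9 genes of ligand shedding, 8 were tested and 4 fell, while none rose (edgeR, 0 higher and 5 lower at an unadjusted p under 0.05; DESeq2 and limma-voom also called 0 higher and 4 lower). ADAM9, a membrane protease, fell from 347 ± 14.1 CPM in controls to 288 ± 5.04 CPM (-0.27 on the log2 scale, edgeR adjusted p = 1.24e-08). RHBDF1 and RHBDF2, inactive rhomboids that carry ADAM17 to the surface, changed by -0.26 (adjusted p = 4.49e-03) and -0.24 (adjusted p = 3.47e-03). ADAM10 was the fourth, at -0.10 (adjusted p = 0.0143), a call lost with total count scaling (adjusted p = 0.0546) and without ELAPOR1 replicate 2 (adjusted p = 0.0501). ADAM17, the main sheddase of TGFA, AREG and HBEGF, was at 49.9 and 46.1 CPM (-0.12, adjusted p = 0.068) and did not pass. The 4 called of 8 lie between these shares, and the median of the list was -0.11, beside 0.00 over all tested genes. All 4 were lower, where 22.1% of all tested genes and 27.9% of those at or above 50 CPM were called lower. Of the 8, 3 had positive fold changes, and none of these was called.

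Of 21 genes of receptor restraint and trafficking, 20 were tested, 6 rose and 5 fell (median 0.00). With DESeq2, limma-voom or upper-quartile scaling 4 rose and 5 fell, and after removal of GC and length trends 4 rose and 7 fell, so neither direction prevailed across settings. SH3KBP1, an adaptor of CBL-driven receptor uptake, rose from 131 ± 4.36 to 169 ± 1.32 CPM (0.37, edgeR adjusted p = 4.98e-11). EPN1, an epsin of clathrin coats, rose by 0.22 (adjusted p = 7.55e-07). SOCS5 rose by 0.16 with an adjusted p of 0.0488, a call lost with DESeq2, limma-voom and upper-quartile scaling, after removal of GC and length trends, and without ELAPOR1 replicate 1, 2 or 3 or control replicate 2, 3 or 4 (adjusted p up to 0.22). CBLB, a ubiquitin ligase of active receptors, fell from 8.65 ± 1.20 to 6.02 ± 0.130 CPM (-0.52, adjusted p = 6.11e-04). SOCS3 changed by -0.38 (adjusted p = 1.01e-06) and PTPRJ, a receptor phosphatase, by -0.37 (adjusted p = 5.67e-08). CBL itself stood at 124 and 125 CPM and did not pass. Of the tested genes of this list 55.0% were called, between the 44.7% of all tested genes and the 61.7% of those at or above 50 CPM.

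In the RAS-ERK cascade all 20 genes were tested, of which 7 rose and 4 fell (55.0% called, against 44.7% of all tested genes and 61.7% at or above 50 CPM; median 0.06). RASA1, a GTPase-activating protein that switches RAS off, rose from 317 ± 17.7 to 451 ± 9.35 CPM (0.51, edgeR adjusted p = 1.55e-14), the largest change of the list. NF1, also a RAS brake, rose by 0.16 (adjusted p = 0.0331), a call lost without ELAPOR1 replicate 1 or 2 or control replicate 2, 3 or 4 (adjusted p up to 0.0926). The kinases MAP2K1 (-0.28, adjusted p = 9.95e-09) and MAP2K2 (-0.23, adjusted p = 4.66e-06) fell, as did the adaptor GAB2 (-0.41, adjusted p = 3.20e-07).

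In the PI3K-AKT and PLC-gamma arm all 14 genes were tested, of which 6 rose and 3 fell (64.3% called, near the 61.7% of genes at or above 50 CPM, against 44.7% of all; median 0.13). The catalytic subunits PIK3CA (edgeR adjusted p = 4.21e-03) and PIK3CB (adjusted p = 5.50e-04) both fell by 0.17 on the log2 scale. PLCG2 rose by 0.29 (adjusted p = 4.32e-04) and PDPK1, the kinase that activates AKT, by 0.23 (adjusted p = 3.83e-04). PLCG1 rose by 0.18 (adjusted p = 0.0324), a call lost with DESeq2, after removal of GC and length trends, and without ELAPOR1 replicate 3 or 4 or control replicate 2, 3 or 4 (adjusted p up to 0.13).

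Genes whose transcription follows ERK activity went both ways. Of 20, 19 were tested, 4 rose and 8 fell (63.2% called, near the 61.7% of genes at or above 50 CPM, against 44.7% of all; median -0.09). DUSP6, the ERK phosphatase and feedback gene, fell from 37.4 ± 2.21 to 26.4 ± 0.697 CPM (-0.50, edgeR adjusted p = 2.74e-08). IER3 changed by -0.44 (adjusted p = 3.06e-12) and ETV5, an ETS factor, by -0.35 (adjusted p = 3.16e-07). Chosen after their values were seen, PHLDA1 (-0.32), EPHA2 (-0.31), DUSP5 (-0.31), FOSL1 (-0.21) and SPRED1 (-0.18) made up the other falls (edgeR adjusted p from 1.12e-11 to 5.85e-04). In the opposite direction EGR1, an immediate early gene, rose from 55.1 ± 3.18 to 83.3 ± 4.22 CPM (0.60, adjusted p = 2.24e-12), and CCND1, the gene of cyclin D1, rose by 0.25 (adjusted p = 1.62e-09), as did SPRED2 (0.22, adjusted p = 1.00e-04), named after its value was seen. ETV1 rose by 0.32 (adjusted p = 0.024), a call lost with limma-voom and without ELAPOR1 replicate 3 or control replicate 2 or 3 (adjusted p up to 0.171). SPRY2 and SPRY4, also feedback inhibitors, did not pass (0.06 and 0.05).

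**Figure D4:**
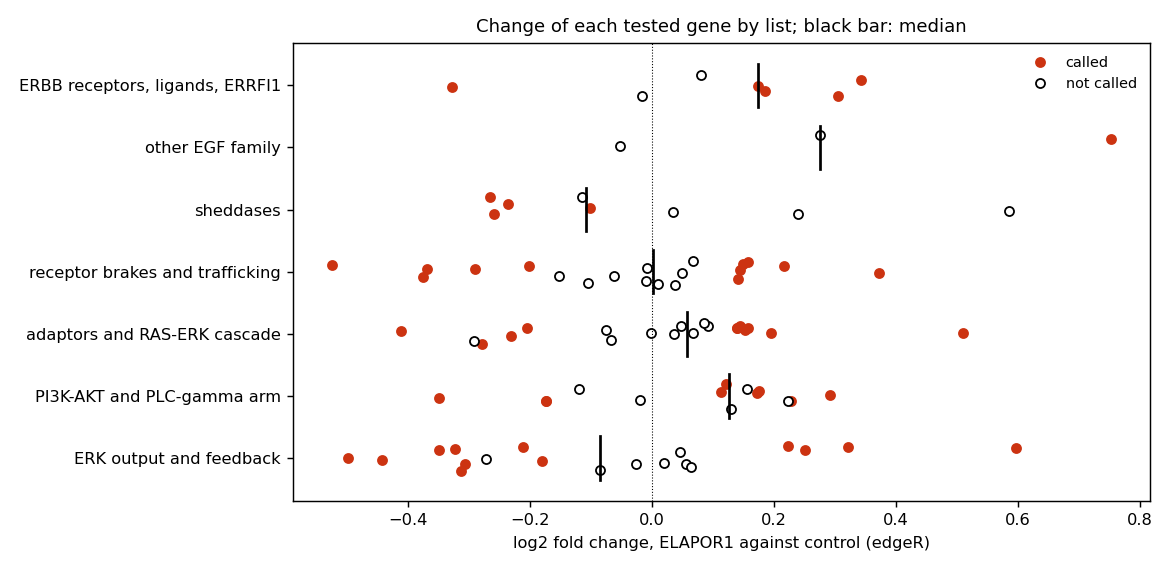
Log2 fold change (x axis) of each tested gene of the ERBB genes and the 6 pathway lists, filled where it passed the edgeR test; black bars are medians. All 4 called sheddase genes lie left of 0, while the other lists with more than 1 called gene hold called genes on both sides.

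For ERBB3, TGFA and ERRFI1 the genes of most similar pattern over the 8 libraries were sought among tested genes averaging 5 CPM or more, by the Pearson correlation of log2(CPM + 1). The libraries share the 2 groups, so genes that differ between groups correlate for that reason, and the values are descriptions. TMEM102 (r = 0.987) and MIEF2 (r = 0.985) were most like ERBB3. RRP36 (r = 0.996) and LSM12 (r = 0.994) were most like TGFA. NOMO2 (r = 0.997), whose reads are hard to tell from its near-identical copies, and ZNF629 (r = 0.995) were most like ERRFI1.

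The genes were also set beside their neighbours on the chromosome. Among the 20 nearest tested genes averaging 5 CPM or more, the median log2 fold change was -0.10 around ERBB3, with 6 of 20 positive, and 0.10 around TGFA, with 16 positive. It was 0.07 around AREG, -0.08 around HBEGF and -0.03 around ERRFI1. Around EGFR and ERBB2 it was 0.09 and 0.08. The fold changes of ERBB3, TGFA and AREG had the sign of their neighbours' median and those of HBEGF and ERRFI1 the opposite one. Each of these 5 was larger in size than that median, but some neighbour of each changed more in the same direction. The neighbours reached -0.51 around ERBB3, 0.55 around TGFA, 0.35 around AREG, 0.18 around HBEGF and 0.43 around ERRFI1.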

How the data were processed

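RNA was sequenced in 4 control and 4 ELAPOR1 libraries of Panc 10.05. The authors deposited estimated counts (RSEM expected counts) per gene, not scaled between libraries; cutadapt, STAR, RSEM, DESeq2 and the build hg38 are named without version or order per the submitters' processing notes. Annotation release and use of strand were not given in the sources used here, and 15.0% of nonzero values were not whole.

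Counts were rounded and tested on the whole table with edgeR 4.0.16 in R 4.3.3: filterByExpr, TMM, robust quasi-likelihood test of ELAPOR1 against control, two-sided, no covariate, Benjamini-Hochberg adjustment over 13860 genes. The standard error is the log2 fold change divided by the square root of F, and 95% intervals use it with a normal approximation. Single values were compared with exact permutation tests. The procedure was tested on simulated data. Of the gene IDs, 58597 of 58870 were found without version in GENCODE 29 (GRCh38), which gave coordinates, overlaps and lengths. Promoter windows came from RefSeq on GRCh38.p14, in which 7 of the 9 genes were found. Depth was 13765509 to 18128757 counts a library.

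The 9 genes, the 6 pathway lists and the markers were chosen with earlier results of these data known. The genes named are the 9, the 3 largest called rises and falls of each list, and the 2 genes most correlated with ERRFI1 and with the receptor and the ligand of largest change among the 9; other list genes given with values (ADAM10, ADAM17, CBL, EGF, BTC, SPRY2, SPRY4 and those so marked) were chosen after their values were seen. Some genes of the lists are not reported here by name. Alternatives were other scalings, DESeq2 1.42.0, limma-voom (limma 3.58.1), 2 filters, 2 thresholds, the replicate block, each library left out and, added after seeing the data, removal of GC and length trends (99.8% of tested genes had values) and within-library ratios. Plots used matplotlib 3.10.9.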

Additional observations from a re-analysis of the deposited data

Results flagged for a closer look

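One library was set apart from the rest of its group (gap over range above Dixon's 95% critical value) in 2 of 78 groups of 4 examined (library totals and the CPM of the named genes); chance alone would give about 3.9. ERBB2 was at 69.4 CPM in ELAPOR1 replicate 1 and at 62.4 to 63.4 CPM in the other ELAPOR1 libraries. SOCS3 was at 46.5 CPM in control replicate 1 and at 50.9 to 51.7 CPM in the other controls. The causes of these gaps were not tested.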

How the results depend on the processing

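The count of called ERBB genes stayed at 5, 4 higher and 1 lower, under the other settings tried; it was 6 after removal of GC and length trends, by EGFR at -0.079, and 0 in the test against a 1.5-fold change. In that test ERBB3 (-0.33), AREG (0.19), TGFA (0.34), HBEGF (0.17) and ERRFI1 (0.31) had adjusted p = 1, the 6 pathway lists had 0 called genes each, and 215 genes were called in all; it asks for a larger change by its construction. EGFR, not called, was 0.0055 with total count scaling and 0.0069 without control replicate 1 (-0.057 to 0.0069 over the left-out libraries). Leaving out each library gave 0 to 1 called genes in the rest of the EGF family, which also had 0 at an adjusted p under 0.01. With the longest transcript in place of merged exons 7 of the 9 genes kept their rank by level per length, HBEGF and ERBB3 changing places in controls with ranges that did not overlap by either length. The median over all genes stayed under 0.03 in size with every scaling. Same-numbered libraries did not deviate together (r -0.02 to 0.03, against -0.07 to 0.08 for other pairs). Of the 4 controls, 1 correlated best with its own number. No sign of pairing by number was seen, but with 4 libraries a group this cannot show that there was none. With the replicate number as a block 5 ERBB genes and 5926 of all genes were called. With at least 10 counts in every library ELAPOR1 gave no value. Depth limits EREG and NRG1, with at most 10 and 2 counts a library.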
